A study of Homo sapiens with 8 samples.

Results

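Antisense long noncoding RNAs are transcripts of the DNA strand opposite to a named gene, and their symbols end in -AS1, -AS2 or -AS3 after the symbol of that sense gene. The deposited tables listed 867 such names among 57756 genes. The 369 rows with a mean of at least 10 estimated counts over the 8 libraries are described here, and the other 498 names lay below that level, 154 of them at 0 in every library. The mean count was the only measured value used to choose them. Of the 369 RNAs, 322 also had a mean of at least 10 in each of the input and RIP groups taken alone, 40 reached it in the input alone and 7 in the RIP alone. The latter 47 passed through the group in which they were high, so counts over all 369 carry that selection. Just inside the limit stood SLC7A11-AS1 and ZMIZ1-AS1, and just outside it DOCK4-AS1 and STXBP5-AS1, with mean counts of 9.76 and 9.65.

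Antisense RNAs are usually capped, often spliced and mostly not translated. Some act in the nucleus on the gene or chromatin next to them, and others leave it and bind proteins or microRNAs in the cytoplasm. Many start beside the promoter of the sense gene and are copied away from it, and others start within the body of the sense gene and are complementary to part of its mRNA. Several are followed in liver, colon, prostate and pancreatic tumors, among them AFAP1-AS1, FOXD2-AS1 and CDKN2B-AS1, which is also called ANRIL.

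The study pulled down RPS6, part of the small subunit of the ribosome, from lysates of 4 untreated human cancer cell lines, and sequenced the bound RNA (RPS6 RIP) beside the total RNA of the lysate (input). The lines were Hep3B (hepatocellular carcinoma), HCT116 (colon cancer), DU145 (prostate cancer) and SW1990 (pancreatic cancer), with 1 RIP library and 1 input library each, so that the 4 lines served as the replicates of the comparison. One cell line field named Huh7 where the methods named Hep3B, and the latter name is used. The titles of these samples carried only a short form, the ending of the name Hep3B, and did not give it in full. No library of a control antibody was used here, so that RNA bound to RPS6 and RNA carried through by the beads cannot be told apart.

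The libraries held between 34630363 and 54209630 fragments. The summed level of 5 liver markers was 6086 FPKM (fragments per kilobase of transcript, scaled to library size) in the Hep3B input and at most 1.24 in the other inputs. The prostate marker KLK3 was listed at 0 in both DU145 libraries, while the intestinal marker CDX2 reached 86.6 FPKM in the SW1990 input against 6.25 in HCT116. Of 4 RNAs known to stay in the nucleus, 3 fell in the RIP, MALAT1, NEAT1 and RN7SK, with log2 fold changes of -3.04, -2.93 and -4.56, and KCNQ1OT1 was not called, at -0.09 (edgeR adjusted p = 0.814). Of 82 mRNAs of ribosomal proteins, 61 fell and 1 rose, with a median log2 fold change of -1.96.

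The start sites of a few of these RNAs are shown first, because the calls were later counted by the position of the start relative to the sense gene. RefSeq promoter windows (GRCh38.p14, 250 bases before to 50 after the annotated start, while the deposited coordinates are of hg19) were found for 284 of the 369 RNAs, after 289 had matched a current symbol and 71 an older one. MANEA-AS1, STK4-AS1 and RAB30-AS1 started 84, 54 and 169 bases upstream of the start of the sense gene, on the opposite strand, and all 3 fell in the RIP. NDUFA6-AS1 and TMEM9B-AS1 had the same arrangement, at 161 and 233 bases, and rose. The windows lie at chr6:95577402-95577701 on the minus strand (MANEA-AS1), chr20:44966409-44966708 on the minus strand (STK4-AS1), chr11:83071816-83072115 on the plus strand (RAB30-AS1), chr22:42090683-42090982 on the plus strand (NDUFA6-AS1) and chr11:8964425-8964724 on the plus strand (TMEM9B-AS1). Capitals mark the bases that the window of the sense gene also covers, read there on the other strand, 183, 153, 268, 260 and 268 of 300 bases in this order.
MANEA-AS1: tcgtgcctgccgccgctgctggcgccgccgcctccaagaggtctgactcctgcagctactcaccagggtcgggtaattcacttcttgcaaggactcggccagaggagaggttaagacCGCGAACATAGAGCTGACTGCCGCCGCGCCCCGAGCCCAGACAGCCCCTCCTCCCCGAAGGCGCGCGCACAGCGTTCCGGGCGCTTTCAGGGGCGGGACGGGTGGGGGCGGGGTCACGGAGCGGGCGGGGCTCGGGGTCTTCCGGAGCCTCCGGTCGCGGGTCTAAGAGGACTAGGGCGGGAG
STK4-AS1: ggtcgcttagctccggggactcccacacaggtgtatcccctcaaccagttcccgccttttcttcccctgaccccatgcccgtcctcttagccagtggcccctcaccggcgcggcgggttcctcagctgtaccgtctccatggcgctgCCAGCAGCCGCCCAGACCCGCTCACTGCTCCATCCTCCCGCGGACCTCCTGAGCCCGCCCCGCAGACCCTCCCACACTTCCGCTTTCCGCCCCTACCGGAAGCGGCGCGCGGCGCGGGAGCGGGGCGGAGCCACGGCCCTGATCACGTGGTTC
RAB30-AS1: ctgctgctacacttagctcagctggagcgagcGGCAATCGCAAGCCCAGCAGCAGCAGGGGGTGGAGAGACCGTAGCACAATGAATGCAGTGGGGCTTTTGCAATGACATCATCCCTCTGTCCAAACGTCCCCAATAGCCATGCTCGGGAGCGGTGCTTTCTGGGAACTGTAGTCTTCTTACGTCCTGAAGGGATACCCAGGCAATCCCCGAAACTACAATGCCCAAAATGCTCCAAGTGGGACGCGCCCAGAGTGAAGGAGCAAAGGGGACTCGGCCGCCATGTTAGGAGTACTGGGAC
NDUFA6-AS1: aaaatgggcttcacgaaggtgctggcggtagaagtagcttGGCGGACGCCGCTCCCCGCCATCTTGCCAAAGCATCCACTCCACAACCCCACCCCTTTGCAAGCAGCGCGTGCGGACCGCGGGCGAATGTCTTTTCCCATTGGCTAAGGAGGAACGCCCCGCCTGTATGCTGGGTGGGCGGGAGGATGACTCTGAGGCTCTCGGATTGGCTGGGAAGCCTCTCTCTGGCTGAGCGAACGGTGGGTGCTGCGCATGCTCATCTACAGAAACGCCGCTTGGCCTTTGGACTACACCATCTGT
TMEM9B-AS1: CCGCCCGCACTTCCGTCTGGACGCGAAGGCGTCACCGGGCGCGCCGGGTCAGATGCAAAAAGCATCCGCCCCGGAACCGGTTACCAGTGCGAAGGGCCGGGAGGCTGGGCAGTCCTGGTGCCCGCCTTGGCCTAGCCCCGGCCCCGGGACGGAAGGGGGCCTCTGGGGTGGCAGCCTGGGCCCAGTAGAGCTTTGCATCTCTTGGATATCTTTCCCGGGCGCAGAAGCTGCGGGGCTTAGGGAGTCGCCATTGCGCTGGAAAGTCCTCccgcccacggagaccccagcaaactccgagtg

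A pair of RNAs outside the head-to-head arrangement or without a measured distance is shown beside them, with capitals from the annotated start on. OIP5-AS1, which fell, starts 48601 bases downstream of the OIP5 start, at chr15:41283740-41284039 on the plus strand, and WDFY3-AS1, which rose, has its window at chr4:84796415-84796714 on the plus strand. No distance to the sense start was computed for WDFY3-AS1. The window of OIP5-AS1 held 23 CpG dinucleotides and that of WDFY3-AS1 held 3.
OIP5-AS1: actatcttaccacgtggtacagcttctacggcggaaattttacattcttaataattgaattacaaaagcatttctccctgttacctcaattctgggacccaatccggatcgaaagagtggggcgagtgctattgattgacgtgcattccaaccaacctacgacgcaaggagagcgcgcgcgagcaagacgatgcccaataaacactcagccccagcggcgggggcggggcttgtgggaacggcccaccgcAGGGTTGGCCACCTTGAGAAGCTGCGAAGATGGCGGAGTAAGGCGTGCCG
WDFY3-AS1: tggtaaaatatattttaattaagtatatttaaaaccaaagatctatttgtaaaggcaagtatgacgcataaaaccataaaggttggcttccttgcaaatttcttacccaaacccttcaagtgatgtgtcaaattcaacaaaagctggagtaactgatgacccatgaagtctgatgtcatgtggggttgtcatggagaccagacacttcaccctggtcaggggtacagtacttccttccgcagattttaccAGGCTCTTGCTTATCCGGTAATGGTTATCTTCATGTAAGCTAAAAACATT

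Antisense RNAs were lower in the RPS6 RIP than in the input more often than they were higher. With edgeR's quasi-likelihood test, blocked by cell line, 106 of the 369 were lower and 33 higher at a Benjamini-Hochberg adjusted p under 0.05 over all 19910 genes tested, and 230 were not called. Over all genes tested, 24.9% were lower and 26.5% higher, while 28.7% of the antisense RNAs were lower and 8.94% higher. The share that fell was thus near that of all genes, and the share that rose was smaller. The median log2 fold change was -0.76 over the antisense RNAs, against -0.05 over all genes and 0.22 over the 334 sense genes tested. Among the 322 RNAs with enough counts in both groups, 90 (28.0%) were lower and 32 (9.94%) higher, with a median of -0.67. Of the 18265 genes passing the same rule, 24.9% were lower and 28.3% higher, with a median of 0.01. There too the share that fell was near that of all genes, and the share that rose was smaller.

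**Figure D1:**
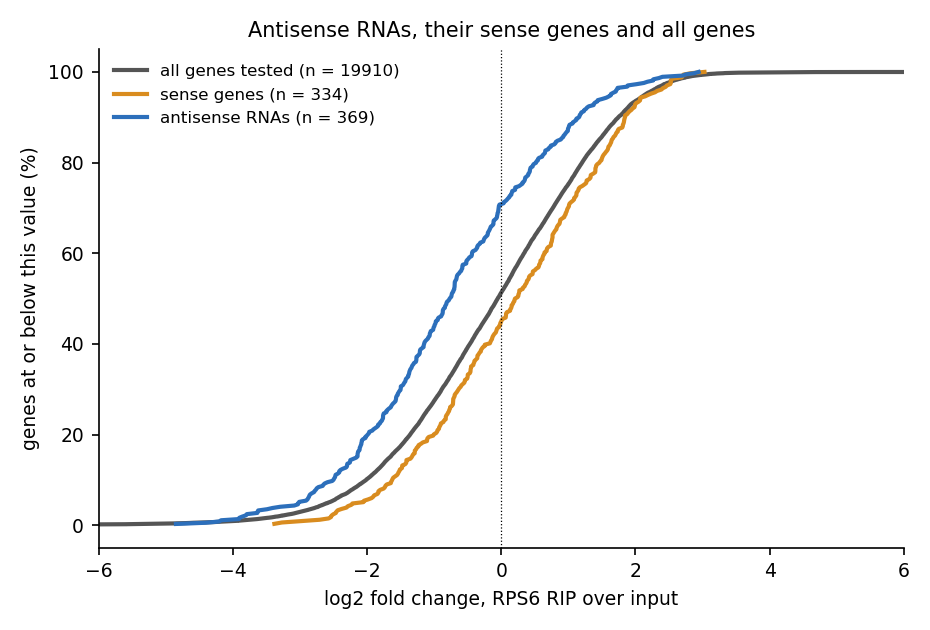
Cumulative share of genes (y axis, percent) at or below a log2 fold change of RPS6 RIP over input (x axis) for the 369 antisense RNAs, the 334 sense genes and all 19910 genes tested. The curve of the antisense RNAs lies to the left of the other curves over most of its range, with medians of -0.76, 0.22 and -0.05 in this order.

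The direction was the same in each cell line. The median log2 ratio of RIP to input, here of FPKM + 1, of the antisense RNAs was -0.17, -0.14, -0.18 and -0.23 from Hep3B through HCT116 and DU145 to SW1990, against 0.08, 0.01, 0.04 and 0.00 over all genes. A ratio below 0 in all 4 lines was found for 143 antisense RNAs and above 0 for 50. Over all genes, 23.6% were below 0 in all 4 lines and 30.8% above. The call threshold was reached by 25 lower (16.9%) and 2 higher (1.35%) of the 148 RNAs with mean counts of 10 to 50. It was reached by 35 lower (39.3%) and 17 higher (19.1%) of the 89 RNAs with mean counts of 200 and over. Over all genes tested, at any count, 24.9% were lower and 26.5% higher. The shares of all genes within these count ranges are not given here, so the ranges cannot be set against them. Without the DU145 libraries 67 RNAs were lower, and of all genes 4084 were lower, against 4963 with all lines. A fit that ignored the pairing by cell line called 15 lower and 4 higher. In that fit 4.07% of the antisense RNAs were lower and 1.08% higher, against 6.76% and 7.17% of all genes, so that the share that fell was below that of all genes there.

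The share of all fragments that fell on the 369 RNAs was lower in the RIP of each line. It was 0.277% in the Hep3B input (95% Wilson interval 0.275 to 0.279%) and 0.143% in its RIP (0.142 to 0.144%). In HCT116 it was 0.248% (0.247 to 0.25%) and 0.109% (0.108 to 0.110%), in DU145 0.279% (0.277 to 0.28%) and 0.168% (0.166 to 0.169%), and in SW1990 0.440% (0.438 to 0.442%) and 0.207% (0.205 to 0.208%). These intervals cover counting error only. The 4 most counted RNAs of each library held 23.8 to 48.0% of these fragments in the inputs and 20.4 to 38.2% in the RIP libraries, so that a few abundant RNAs weighed heavily on this share.

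Of the 6 RNAs with the highest mean FPKM, FAM211A-AS1, FGD5-AS1 and OIP5-AS1 fell, MYCBP2-AS1 rose, and MMP24-AS1 and PRC1-AS1 were not called. FAM211A-AS1, now named SNHG29 and known as a host gene of small nucleolar RNAs, had inputs of 497 (Hep3B), 958 (HCT116), 208 (DU145) and 801 FPKM (SW1990), and RIP libraries of 194, 159, 47.2 and 115 FPKM in the same order, which is kept below. Every RIP library lay below every input. Its log2 fold change was -2.43 (SE 0.26, edgeR adjusted p = 3.45e-05). All 6 of the other snoRNA host genes examined, GAS5, SNHG1, SNHG5, SNHG6, SNHG8 and ZFAS1, also fell, with a median log2 fold change of -2.54.

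OIP5-AS1, a conserved cytoplasmic RNA also called Cyrano that binds a microRNA, had 71.9, 48.2, 47.6 and 43.2 FPKM in the inputs of Hep3B, HCT116, DU145 and SW1990, and 27.6, 9.41, 11.0 and 11.6 FPKM in the RIP. FGD5-AS1 had 107, 53.2, 81.4 and 62.1 FPKM in the inputs and 41.2, 12.6, 18.2 and 20.1 in the RIP. For both RNAs the highest RIP library was below the lowest input, and Hep3B was the highest of the RIP libraries. The log2 fold changes were -2.11 (SE 0.20, edgeR adjusted p = 2.25e-05) and -2.09 (SE 0.19, edgeR adjusted p = 1.90e-05).

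EPB41L4A-AS1, a host of a small nucleolar RNA, had 23.3, 45.1, 37.2 and 126 FPKM in the inputs and 6.30, 7.62, 4.95 and 13.6 in the RIP, in the same order of lines. CEBPZ-AS1, whose RefSeq entry is now the protein-coding gene CEBPZOS, had 20.0, 42.7, 57.6 and 72.2 FPKM in the inputs and 2.48, 3.80, 5.80 and 5.39 in the RIP. Neither RNA showed any overlap between input and RIP libraries. Their log2 fold changes were -2.87 (SE 0.27, edgeR adjusted p = 1.91e-05) and -3.81 (SE 0.21, edgeR adjusted p = 1.23e-05).

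**Figure D2:**
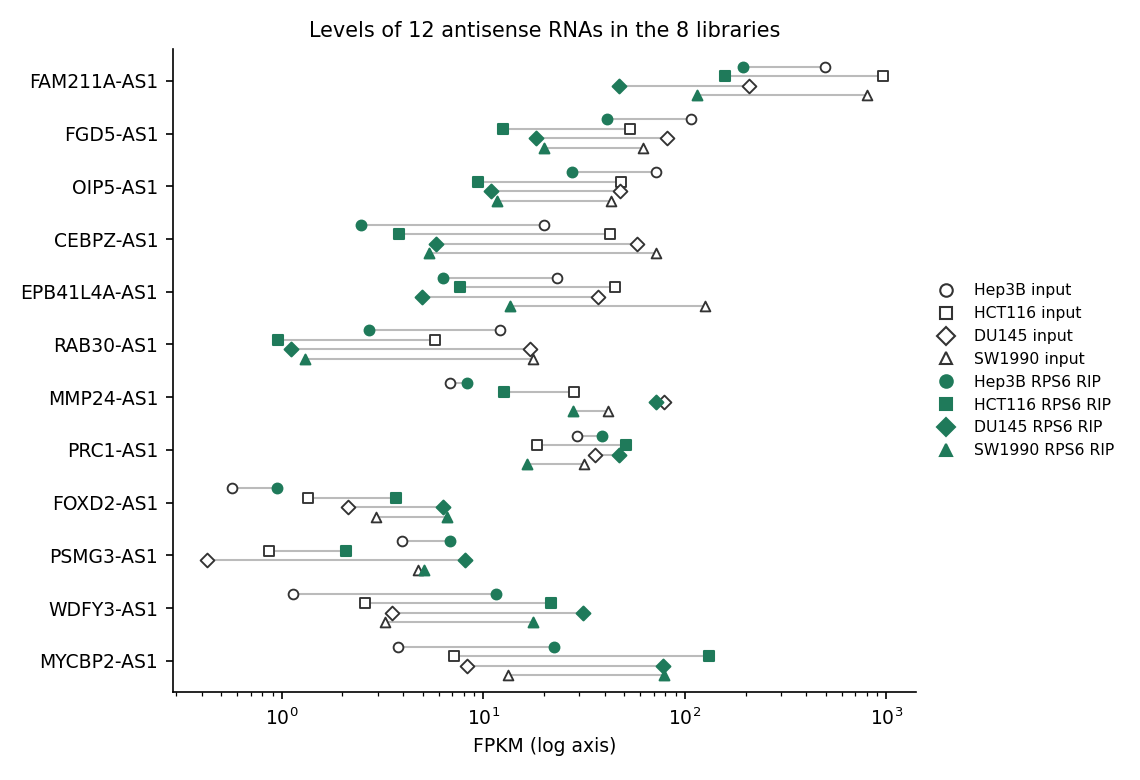
FPKM on a log axis of 12 antisense RNAs in each of the 8 libraries, with open symbols for input, filled symbols for RPS6 RIP, 1 symbol shape per cell line and a grey line joining the 2 libraries of a line. The upper 6 RNAs moved down in every line, MMP24-AS1 and PRC1-AS1 moved in different directions, and the lower 4 moved up in every line.

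Among the called RNAs that moved one way in all 4 lines, the 8 with the lowest log2 fold changes were MANEA-AS1 (-4.85), MAGI2-AS3 (-4.40), MAST4-AS1 (-4.21), ZNF252P-AS1 (-3.91), STK4-AS1 (-3.90), LAMTOR5-AS1 (-3.86), CEBPZ-AS1 and RAB30-AS1 (-3.63). Of these 8, all but CEBPZ-AS1 and RAB30-AS1 passed the count limit through the input alone, where they were high, and this order carries that selection. These 6 rested on few fragments in the RIP. MANEA-AS1, beside the gene of a Golgi mannosidase, had 57, 8, 33 and 38 fragments in the inputs and 0, 0, 0 and 5 in the RIP. MAST4-AS1 had 6, 12, 18 and 56 fragments in the inputs and 3, 0, 0 and 0 in the RIP, and it missed the threshold when HCT116, DU145 or SW1990 was left out, with edgeR adjusted p of 0.0978, 0.0838 and 0.132. MAGI2-AS3 was counted almost only in DU145, with 470 input fragments against 11 after RIP, and without that line its edgeR adjusted p was 0.222. RAB30-AS1, beside the gene of a Golgi GTPase, was better covered, with 272, 117, 454 and 331 fragments in the inputs and 23, 12, 12 and 15 in the RIP. Its FPKM was 12.1, 5.73, 17.1 and 17.6 in the inputs and 2.70, 0.962, 1.10 and 1.30 in the RIP, with no overlap.

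The RNAs that rose were led by the partners of MYCBP2 and WDFY3. MYCBP2-AS1 lies in the deposited locus of MYCBP2 (hg19 chr13:77618791-77901185), which encodes a large ubiquitin ligase. It had 3.78, 7.13, 8.32 and 13.2 FPKM in the inputs and 22.5, 132, 77.9 and 79.2 in the RIP of Hep3B, HCT116, DU145 and SW1990. Every RIP library lay above every input. Its log2 fold change was 2.94 (SE 0.32, edgeR adjusted p = 3.82e-05), the highest of the antisense RNAs called.

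WDFY3-AS1 shares the deposited locus of WDFY3 (hg19 chr4:85590703-85932430), whose protein takes part in selective autophagy. It had 1.14, 2.58, 3.51 and 3.24 FPKM in the inputs and 11.6, 21.6, 31.4 and 17.7 in the RIP. The groups again did not overlap, and the log2 fold change was 2.88 (SE 0.39, edgeR adjusted p = 0.000145).

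Other leading RNAs that rose were ZSWIM8-AS1 (log2 fold change 2.35), COL18A1-AS1 (2.27), PSMG3-AS1 (2.26), ARAP1-AS2 (2.18) and ARAP1-AS1 (2.13). The last 2 share the sense gene ARAP1, and both of their rows carry the same deposited locus as that gene, so they are not separate evidence. ZSWIM8-AS1 missed the threshold without HCT116, and COL18A1-AS1 without DU145, with edgeR adjusted p of 0.0720 and 0.0607. With limma on log2(FPKM + 1), PSMG3-AS1 and COL18A1-AS1 had adjusted p of 0.0705 and 0.0618.

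Some abundant antisense RNAs were not called in either direction. MMP24-AS1, now MMP24OS in RefSeq, had 6.86, 28.2, 78.6 and 41.5 FPKM in the inputs and 8.25, 12.7, 71.8 and 27.9 in the RIP, with a log2 fold change of -0.12 (SE 0.25, edgeR adjusted p = 0.725). PRC1-AS1, opposite a gene needed for the central spindle in cell division, had 29.1, 18.5, 35.7 and 31.6 FPKM in the inputs and 39.0, 50.9, 47.0 and 16.4 in the RIP, with a log2 fold change of 0.15 (SE 0.34, edgeR adjusted p = 0.737). The groups overlapped for both. MMP24-AS1 was above its input only in Hep3B, and PRC1-AS1 below its input only in SW1990.

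A list of 13 RNAs with described functions held 5 that fell, 1 that rose and 7 that were not called. These shares, 38.5% lower and 7.69% higher, stand beside 24.9% and 26.5% over all genes tested, and the list is short. Besides OIP5-AS1, FGD5-AS1 and EPB41L4A-AS1, SBF2-AS1 and AFAP1-AS1 fell. SBF2-AS1 had 4.61, 4.22, 11.3 and 6.73 FPKM in the inputs and 3.66, 1.65, 2.95 and 1.21 in the RIP, with a log2 fold change of -2.14 (SE 0.36, edgeR adjusted p = 0.000635). FOXD2-AS1, which starts upstream of a forkhead factor gene, had 0.565, 1.36, 2.13 and 2.93 FPKM in the inputs and 0.947, 3.68, 6.34 and 6.58 in the RIP. The groups of FOXD2-AS1 overlapped, since Hep3B was low in both, but the RIP was higher within each line, with a log2 fold change of 1.27 (SE 0.30, edgeR adjusted p = 0.00479).

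Among the 7 that were not called, MCM3AP-AS1 and TMPO-AS1 had log2 fold changes of -0.31 (SE 0.25) and -0.09 (SE 0.26). ZEB1-AS1, at the gene of a driver of epithelial-mesenchymal transition, had 2.20, 2.06, 2.38 and 7.31 FPKM in the inputs and 2.60, 1.20, 2.30 and 5.75 in the RIP, and a log2 fold change of -0.95 (SE 0.42). CDKN2B-AS1, which lies across the locus of cell cycle inhibitors, was at -1.57 (SE 0.68), HOXB-AS3 at -0.74 (SE 0.34) and GAS6-AS1 at 0.89 (SE 0.72). Leaving out 1 line brought HOXB-AS3 (without HCT116) and ZEB1-AS1 (without Hep3B) past the threshold, with edgeR adjusted p of 0.0395 and 0.0226.

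Grouped by the role of the sense gene, 22 antisense RNAs of transcription factor genes had 3 higher and 3 lower, with a median log2 fold change of -0.12. Among those that rose were MAFG-AS1 (1.89) and FOXD2-AS1, and the 3 that fell were DLX6-AS1 (-2.66), NR2F1-AS1 (-2.14) and NR2F2-AS1 (-2.08). Of 9 opposite genes of cell division and DNA repair, 3 fell, among them SMC5-AS1 (-2.63) and RAD21-AS1 (-2.59), and KIF9-AS1 rose (1.31), with a median of -1.57. A list of 37 RNAs linked to cancer held 11 lower and 3 higher, with a median of -0.74. Among those that fell were KTN1-AS1 (-1.81), MAPKAPK5-AS1 (-1.42) and PXN-AS1 (-1.05), and VPS9D1-AS1 rose (1.16). Of 8 RNAs of the HOX clusters, which set position along the body axis, HOXD-AS1 alone was called (-0.98), and the median was -0.92. Of 14 opposite zinc finger genes, ZNF674-AS1 (-3.41), ZNF252P-AS1 and ZSCAN16-AS1 (-1.67) fell and ZNF503-AS2 (1.63) rose, with a median of -1.24. In this order of lists, 13.6, 33.3, 29.7, 12.5 and 21.4% were lower, against 24.9% over all genes tested. The shares that rose were 13.6, 11.1, 8.11, 0 and 7.14%, against 26.5%. Each list was short, and no list had a test of its own, so these shares are not results about the lists.

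Other long noncoding RNAs gave similar values. The 254 genes that RefSeq calls lncRNA and that are not antisense RNAs of this set had 67 (26.4%) lower and 15 (5.91%) higher. Their median log2 fold change was -0.76. Over all genes tested, 24.9% were lower and 26.5% higher. The 152 long intergenic genes with LINC symbols had 30 (19.7%) lower and 11 (7.24%) higher, with a median of -0.74. Of 13563 protein-coding genes, 3537 (26.1%) were lower and 4377 (32.3%) higher, with a median of 0.13. By current symbol or older name, 8 of the antisense RNAs matched a RefSeq entry that is protein-coding, of which 4 fell and 2 rose. HNRNPU-AS1 matched HNRNPU, its own sense gene, so that entry is not of a separate antisense transcript. They were HNRNPU-AS1 (-2.75), TOPORS-AS1 (-2.79), RPA3-AS1 (-1.14) and CEBPZ-AS1, which fell, TNRC6C-AS1 (1.71) and FAM83H-AS1 (0.93), which rose, and MMP24-AS1 and NCBP2-AS2 (-0.11), which were not called.

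The antisense RNAs were also shorter than most genes, as judged from the ratio of estimated count to FPKM. Their median length by this measure was 0.661 of the median of all genes tested, against 1.34 for the sense genes and 0.292 for the ribosomal protein mRNAs. Over all 19910 genes tested, the log2 fold change rose with this length (Spearman's rho across genes, 0.31), and over the 369 antisense RNAs rho was 0.09. Genes are not independent replicates, and both values are descriptions. The part of length in the difference between antisense RNAs and all genes was not tested.

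Each antisense RNA was then set beside its sense gene, to see whether the 2 transcripts of a locus had moved together. A sense gene was listed for 357 of the 369, and 347 pairs had a sense gene with enough counts. The remaining 12 named a cluster or an outdated symbol, such as the HOX clusters. Of the 357, 299 carried the same deposited locus as the sense gene. The library kit was stranded, but whether the counting used strand is not given in the sources used here. Where it did not, reads of the 2 strands cannot be told apart, and every value of an overlapping pair is open to that.

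The antisense RNA had the lower log2 fold change in 256 of the 347 pairs, and the median difference was -0.71. By the ratios of FPKM + 1, it was lower than its sense gene in all 4 lines in 151 pairs and higher in all 4 in 33. The median of the per-line differences was -0.50, -0.38, -0.41 and -0.59, with the lines in the order above. Adding 1 to FPKM understates the changes of low genes. The median of the mean FPKM was 1.72 for the antisense RNAs and 18.1 for the sense genes, so these FPKM-based counts and differences carry that. The count for pairs at the same deposited locus was 211 of 290 lower, and for pairs at separate loci 45 of 57. In the inputs the antisense RNA was the less abundant transcript in most pairs, with the sense gene at a median of 6.39 times its FPKM, and it was the more abundant in 53.

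The log2 fold changes of the 2 transcripts were correlated across the 347 pairs (Pearson's r 0.48, Spearman's rho 0.47, as a description across genes). Spearman's rho was 0.47 for the 290 pairs at the same locus and 0.48 for the 57 at separate loci. Of the 33 antisense RNAs that rose, 25 had a sense gene that also rose, 3 one that fell and 5 one that was not called. Of the 102 that fell with a sense gene tested, 50 had a sense gene that fell, 23 one that rose and 29 one that was not called. Over the 334 sense genes as a whole, 135 were higher and 89 lower, at 40.4 and 26.6%.

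**Figure D3:**
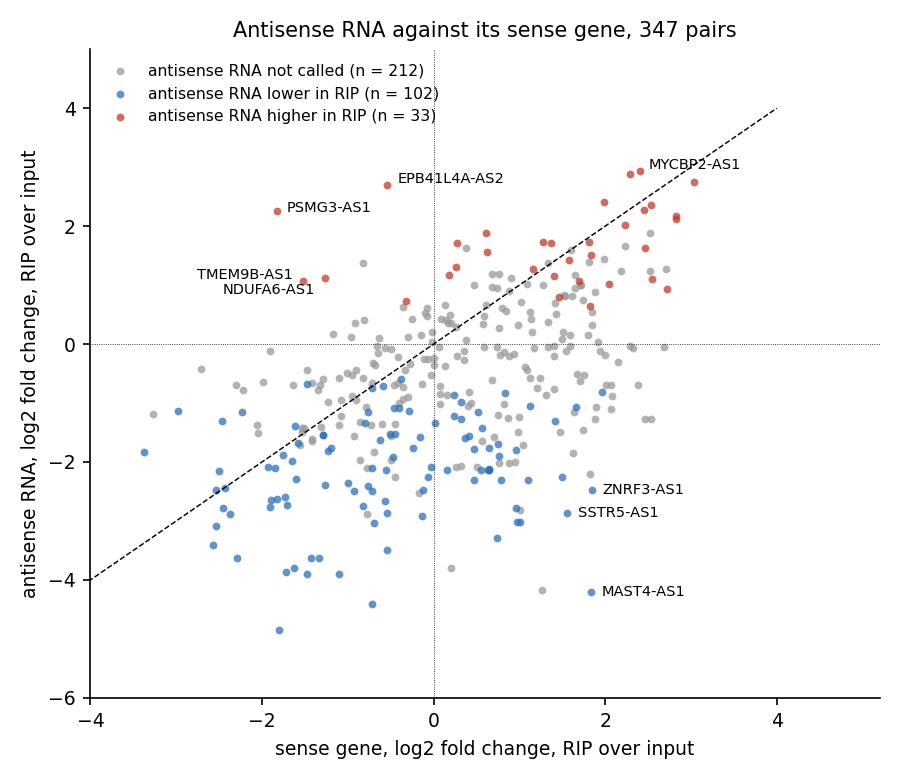
Log2 fold change of RIP over input of the antisense RNA (y axis) against that of its sense gene (x axis) in 347 pairs, with a dashed line of equality and colors for the call of the antisense RNA. Of the points, 256 lie below the line, and most RNAs that rose sit at the upper right, where the sense gene rose too.

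MYCBP2 and WDFY3 rose with their antisense partners, with log2 fold changes of 2.41 and 2.29. For MYCBP2-AS1 the log2 ratio of FPKM + 1 was higher than that of MYCBP2 by 0.58 ± 0.50 (SD, n = 4 lines), with an exact 2-sided sign-flip p of 0.125, the smallest that 4 lines allow. FAM211A, which shares its locus with FAM211A-AS1, fell by the same amount as its partner, at -2.44 against -2.43.

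Among the pairs that differed most in the negative direction were those of MAST4-AS1, SSTR5-AS1 and ZNRF3-AS1, with differences in log2 fold change of -6.04, -4.42 and -4.32. In each of these the sense gene rose, by 1.84 for the kinase gene MAST4, 1.56 for the somatostatin receptor gene SSTR5 and 1.85 for ZNRF3, whose product removes Wnt receptors. ZNRF3 had 7.06, 4.02, 4.33 and 12.8 FPKM in the inputs and 29.5, 10.6, 11.4 and 94.4 in the RIP, while ZNRF3-AS1 had 0.432, 0.116, 0.425 and 0.156 FPKM in the inputs and 0.0934, 0.0472, 0.0335 and 0.0474 in the RIP. MAST4-AS1 and ZNRF3-AS1 passed the count limit through the input alone, so their distance from the sense gene carries that selection. ZNRF3-AS1 had at most 5 fragments in any RIP library and missed the threshold without Hep3B, HCT116 or DU145. SSTR5-AS1 was called lower on estimated counts, although its FPKM was higher in the RIP of HCT116 (1.53 against 1.38) and SW1990 (1.49 against 1.17). With limma on log2(FPKM + 1) its adjusted p was 0.160.

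More abundant RNAs also parted from their sense genes. MCM3AP, which encodes an mRNA export factor, had 39.4, 18.6, 27.3 and 14.8 FPKM in the inputs and 100.2, 120.4, 149 and 114 in the RIP, with a log2 fold change of 2.15. MCM3AP-AS1 had 7.40, 2.40, 9.45 and 6.82 FPKM in the inputs and 6.01, 1.89, 8.79 and 6.67 in the RIP. The difference of the log2 ratios was -2.46 ± 0.61 (SD, n = 4 lines). OIP5-AS1 fell more than OIP5 in every line, by a difference of -1.42 ± 0.13 (SD, n = 4 lines), and CEBPZ-AS1 more than CEBPZ, at -2.09 ± 0.49 (SD, n = 4 lines). The exact sign-flip p was 0.125 for each of the 3 pairs.

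In the opposite direction, PSMG3-AS1, EPB41L4A-AS2, TMEM9B-AS1 and NDUFA6-AS1 exceeded their sense genes by 4.09, 3.25, 2.59 and 2.39 in log2 fold change. PSMG3, a chaperone gene of proteasome assembly, had 78.7, 53.0, 64.6 and 94.1 FPKM in the inputs and 29.1, 11.7, 24.0 and 22.8 in the RIP. PSMG3-AS1 had 3.95, 0.865, 0.423 and 4.73 FPKM in the inputs and 6.83, 2.08, 8.07 and 5.05 in the RIP. The sense gene was thus lower and the antisense RNA higher within each line, and the difference of the log2 ratios was 2.76 ± 0.94 (SD, n = 4 lines; exact sign-flip p = 0.125). EPB41L4A-AS2 rested on 22 input and 78 RIP fragments in all and passed the count limit through the RIP alone. Its call (edgeR adjusted p = 0.0450) was lost with DESeq2 (adjusted p = 0.0682), with no filter (0.0722), with no replicate block (0.349), after centring on protein-coding genes (0.0532) and without HCT116, DU145 or SW1990 (0.0964, 0.135 and 0.177). NDUFA6, a subunit gene of respiratory complex I, fell by 1.27 on the log2 scale and TMEM9B by 1.52, while their antisense partners rose by 1.12 and 1.07 with edgeR adjusted p of 0.0118 and 0.0477. TMEM9B-AS1 missed the threshold when any line was left out, and NDUFA6-AS1 without SW1990.

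The position of the start relative to the sense start could be read from RefSeq for 244 antisense RNAs with windows for both genes. In 79 of them the antisense RNA started 1 to 300 bases upstream of the sense start on the other strand, so that both transcripts leave 1 promoter region head to head. Of these 79, 35 were lower in the RIP and 3 higher, with a median log2 fold change of -1.39. Of the 97 that started more than 1000 bases downstream of the sense start, 27 were lower and 13 higher, with a median of -0.82. Of the 42 that started within 1000 bases downstream, 8 were lower and 1 higher, with a median of -0.48, and of the 26 that started more than 300 bases upstream, 8 were lower and 5 higher, with a median of -0.67. Over all genes tested, 24.9% were lower and 26.5% higher, against 44.3% and 3.80% of the head-to-head class. In the other classes 19.0 to 30.8% were lower, around the share of all genes, and 2.38 to 19.2% were higher. Some RNAs in these counts passed the count limit through the input or the RIP alone. The classes were compared by counts and shares only, without a test.

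**Figure D4:**
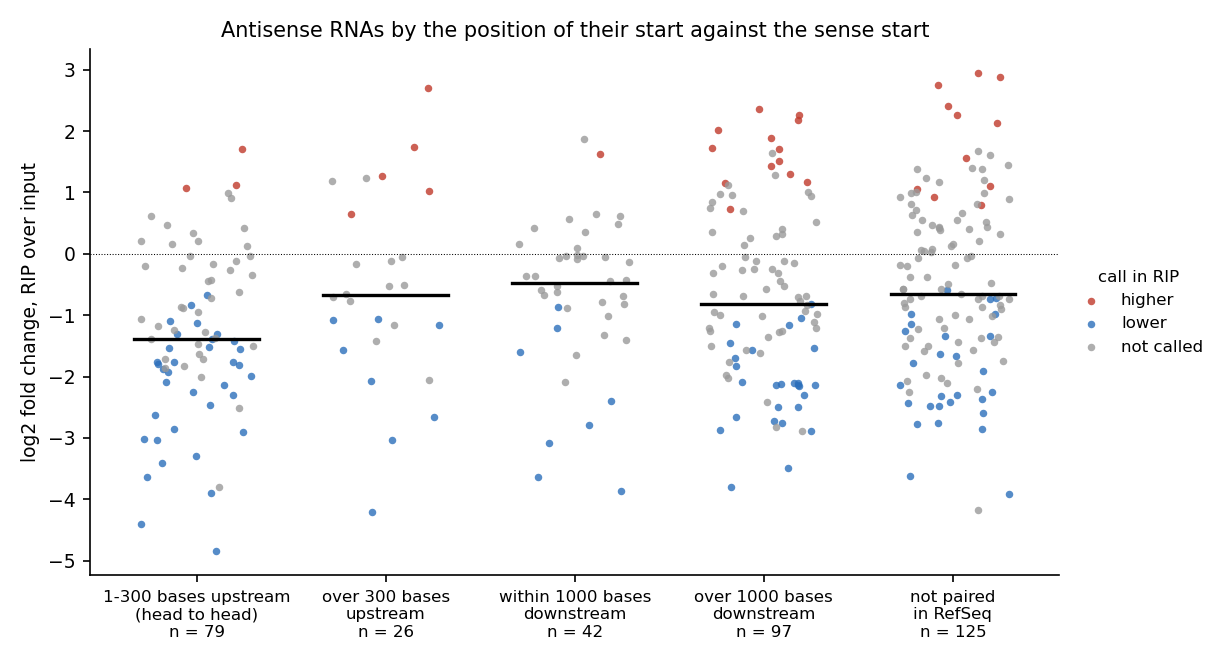
Log2 fold change of RIP over input (y axis) of the 369 antisense RNAs by the position of their start relative to the sense start in RefSeq (x axis), with 1 point per RNA colored by its call and a bar at the median of each class. The head-to-head class has the lowest median, -1.39. Of its 79 RNAs, 44.3% were called lower and 3.80% higher, against 24.9% and 26.5% of all genes tested.

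The head-to-head RNAs that fell included MANEA-AS1, MAGI2-AS3, STK4-AS1, RAB30-AS1, ZNF674-AS1, TNKS2-AS1 (-3.29), USP46-AS1 (-3.03), LENG8-AS1 (-3.01) and TRAM2-AS1 (-2.47). MANEA-AS1, MAGI2-AS3, STK4-AS1 and TNKS2-AS1 passed the count limit through the input alone, where they were high, so their falls carry that selection. The 3 that rose were TMEM51-AS1 (1.71), NDUFA6-AS1 and TMEM9B-AS1. RefSeq has since renamed 43 of the antisense RNAs as divergent transcripts, with symbols ending in -DT, such as MANEA-DT and RAB30-DT, and 32 of them are in the head-to-head class. Of these 43, 21 (48.8%) were lower and 4 (9.30%) higher, with a median of -1.31. The 298 that kept an antisense symbol had 74 (24.8%) lower and 25 (8.39%) higher, with a median of -0.72. Over all genes tested the shares were 24.9% and 26.5%. In the 77 head-to-head pairs with a tested sense gene, the median log2 fold change was -0.17 for the sense genes and -1.39 for the antisense RNAs, and rho was 0.22.

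The head-to-head windows were rich in CpG, the dinucleotide that is kept at promoters that stay unmethylated. Their median was 34 CpG in 300 bases and 70.0% G and C, against 14 and 58.7% in all 35116 RefSeq windows. Windows of RNAs that started more than 1000 bases downstream had a median of 17 CpG. By call, the median was 27 CpG for the RNAs that fell, 17 for those that rose and 22 for the others. These values describe the letters of the windows and say nothing about factors bound there.

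Levels of some antisense RNAs differed widely between the cell lines, and the 4 with the largest range in the inputs were chosen for that and are described without a test. AFAP1-AS1, known for high levels in pancreatic and esophageal tumors, had 164 FPKM in the SW1990 input and 0.681, 0.257 and 0.0913 in DU145, Hep3B and HCT116. In the RIP it had 91.1 FPKM in SW1990 and at most 0.145 elsewhere. Its log2 fold change was -2.31 (SE 0.56, edgeR adjusted p = 0.00585), and -3.82 without SW1990, while limma on log2(FPKM + 1) gave an adjusted p of 0.150. In SW1990, 45632 input and 20043 RIP fragments were counted, against 291 and 30 in DU145. AFAP1, its sense gene and the source of an actin-binding protein, rose, with a log2 fold change of 1.11 (SE 0.22, edgeR adjusted p = 0.00157).

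HOXB-AS3, from the HOXB cluster, had 158 FPKM in the SW1990 input, 2.85 in HCT116, 2.84 in DU145 and 0 in Hep3B, and 69.5, 4.02, 1.95 and 0 in the RIP of these lines. HCT116 and DU145 thus had nearly equal inputs. PAX8-AS1, opposite a thyroid and kidney transcription factor gene, had 29.1 FPKM in SW1990, 16.2 in HCT116, 0.665 in DU145 and 0.0855 in Hep3B, and 30.9, 18.3, 0.394 and 0.129 in the RIP. ZNF667-AS1 had 25.9 FPKM in Hep3B and 15.7 in DU145, was listed at 0 in HCT116 and had 0.0387 in SW1990. Its RIP values in Hep3B and DU145 were 32.3 and 5.53. With 1 library of each kind per line, the order of the lines has no replicate error.

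**Figure D5:**
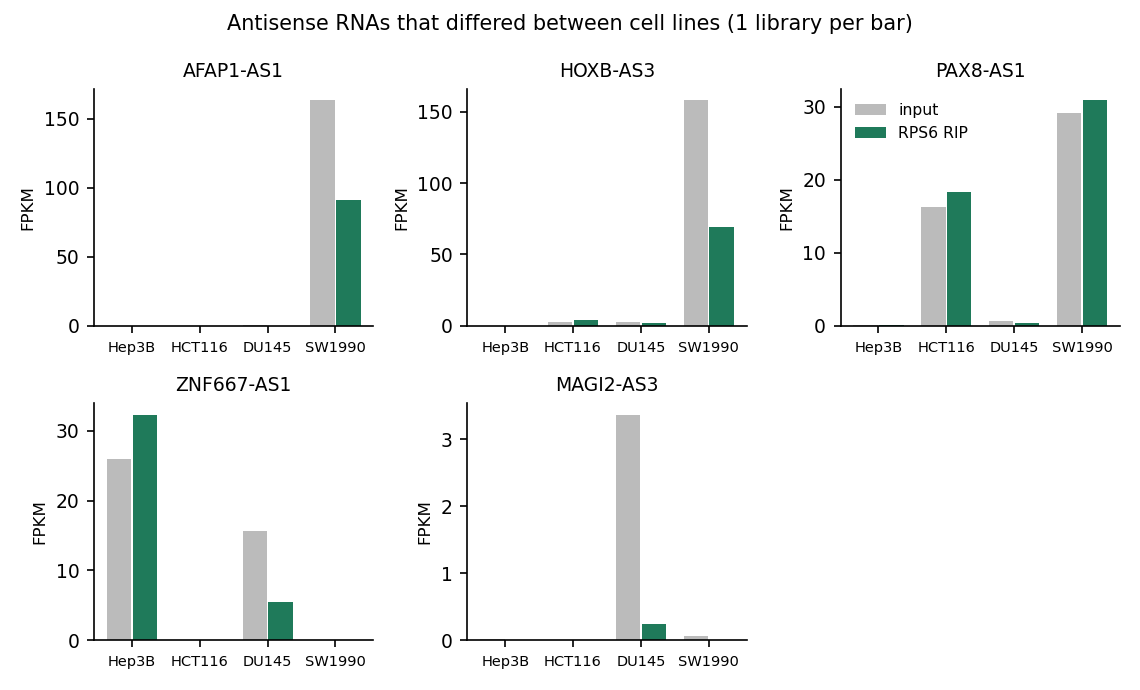
FPKM on linear axes, each starting at 0, of 5 antisense RNAs in the input (grey) and RPS6 RIP (green) library of each cell line, 1 library per bar. AFAP1-AS1 and HOXB-AS3 were highest in SW1990, PAX8-AS1 in SW1990 and HCT116, ZNF667-AS1 in Hep3B and DU145, and MAGI2-AS3 in the DU145 input.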

How the data were processed

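RPS6 RIP and input libraries of 4 cell lines were analysed. Per the labels and the methods, a stranded total RNA kit was used and the authors aligned reads to hg19 with TopHat2 (version 2.0.9, after CASAVA 1.8, from the submitters' processing notes). The quantifier and its use of strand are not given in the sources used here. The deposited tables hold FPKM and estimated counts per gene, made by the authors. The authors' own fold changes, p-values and q-values of single library pairs were not used. In each library 89.0 to 92.2% of the estimated counts were whole multiples, within 0.01, of the value of 1 fragment, which gave the fragments per library.

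Estimated counts were rounded and tested with edgeR 4.0.16 (TMM, quasi-likelihood, R 4.3.3) on the 19910 genes with a mean count of at least 10, with the cell line as a block and Benjamini-Hochberg adjustment. Libraries of 1 line deviated together from the group means (r = 0.83 to 0.88, other lines at most -0.04), and the lines, not the numbers in accession order, pair the libraries. On counts simulated for this comparison over 19910 genes, 28 of 100 genes changed by a fold of 2 and 65 of 100 changed by a fold of 4 were called, with 8 false calls. Only these genes changed in the simulation, while 5282 genes were called higher and 4963 lower in the data. The adjusted threshold was thus stricter there, and these rates need not hold for the data. FPKM ratios were log2((RIP + 1) / (input + 1)), which understates changes of low genes. Pairs used an exact 2-sided sign-flip test over the 4 lines.

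Alternatives were DESeq2 1.42.0, limma 3.58.1 on log2(FPKM + 1) and log2(FPKM + 0.1), other filters and member limits, no block, centring on protein-coding genes, leaving out each line or the pairs of 1 locus, and, added after the values were seen, recovered fragments. The RNAs and lists were chosen with earlier results of these data known. Genes named were the 8 lowest and 8 highest called with 1 sign in all lines, the 6 most abundant, 13 by function, the 4 most different pairs at each end, the 4 with the largest input range, those at the count limit, and their sense genes. A few RNAs that these rules name are not reported here, but counts over lists include them. Other genes named were chosen after their values were seen. Lines stand for replicates, so p-values of the blocked fits set the mean change from input to RIP against its spread between lines.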

Additional observations from a re-analysis of the deposited data

Results flagged for a closer look

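Among 74 sets of 4 values, the log2 ratios of 39 antisense RNAs and the input levels of those not chosen for their input range, 5 had 1 cell line far from the other 3 by Dixon's test at the 95% level, which chance alone gives in about 1 of 20 sets. MAGI2-AS3 had a log2 ratio of -1.82 in DU145, against -0.09 to -0.00 in the other lines, and an input level of 2.13, as log2(FPKM + 1), against 0.00 to 0.09. MAST4-AS1 stood apart in the SW1990 input (1.62 against 0.30 to 0.50), as did ZEB1-AS1 (3.05 against 1.61 to 1.76). SSTR5-AS1 stood apart in the DU145 input (1.97 against 1.12 to 1.25). None of the 39 rose by a log2 ratio of 1 or more in 1 line and fell by as much in another.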

How the results depend on the processing

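Over the alternatives run, the median log2 fold change of the antisense RNAs stayed below 0 and that of the sense genes above 0. For the antisense RNAs it was -0.68 with no replicate block, -0.25 and -0.50 with limma on log2(FPKM + 1) and log2(FPKM + 0.1), -0.89 after centring on protein-coding genes, which moved the median of all genes by -0.13, -1.15 without the RNAs that share the locus of the sense gene, -0.67 with a member limit of 50, and -0.86 to -0.70 when 1 line was left out. For the sense genes it was 0.14 with no filter, 0.30 and 0.36 with limma, 0.10 after centring and 0.12 without shared loci. Leaving the filter out moved the median of all genes by -0.53, and the cause was not tested.

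With no replicate block 4 antisense RNAs were higher and 15 lower, and 30 sense genes were higher and 26 lower. Of all genes, 1427 were higher and 1345 lower there, against 5282 and 4963 in the main fit. Without shared loci, which leaves fewer genes, the counts higher and lower in the main fit were 6 and 24 antisense RNAs and 23 and 15 sense genes. Of the 58 antisense RNAs with a listed sense gene at another locus, 10.3% were higher and 39.7% lower. Over all genes tested the shares were 26.5% and 24.9%. Limma on FPKM gave 57 and 59 sense genes lower, and 3662 and 3894 of all genes lower. Leaving out 1 line gave 67 to 100 antisense RNAs lower (67 without DU145) and 24 to 35 higher, and 91 to 121 of the 139 calls were shared. Of all genes, 4084 to 4809 were then lower (4084 without DU145) and 4448 to 5005 higher, also fewer than in the main fit. DESeq2 called 166 antisense RNAs, 136 of them shared, and also called more of all genes, 5664 higher and 5400 lower. Changes in these counts are thus not particular to the antisense RNAs.

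Some values changed sign in another setting without being called there. Not all of them were near 0 in the main fit, where PAX8-AS1 was at -0.52. When 1 line was left out the log2 fold change ranged from -0.37 to 0.14 for MMP24-AS1 (above 0 without HCT116), -0.24 to 0.54 for PRC1-AS1 (below 0 without HCT116), -0.19 to 0.0046 for TMPO-AS1 (above 0 without HCT116), -0.19 to 0.13 for PAX8 (above 0 without Hep3B), -1.17 to 0.028 for MAGI2 (above 0 without SW1990) and -0.41 to 0.21 for KCNQ1OT1 (above 0 without Hep3B). PAX8 was at 7.19e-06 with DESeq2 and at 0.021 with no replicate block. With limma on log2(FPKM + 1), PAX8-AS1 was at 0.012, EPB41L4A at 0.18, MAGI2 at 0.029, PRC1 at 0.093 and KCNQ1OT1 at 0.0074, and on log2(FPKM + 0.1), EPB41L4A was at 0.14, PRC1 at 0.093 and KCNQ1OT1 at 0.094. Depth limits the RNAs with under 50 counts, where few fragments decide a fold.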
